A study of Homo sapiens with 24 samples.

Results

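Forkhead transcription factors share a winged-helix DNA-binding domain, and the m6A peaks on the mRNAs of all human forkhead factors outside the FOXA group were followed through 6 cell populations of a human pancreatic differentiation. The members were taken by gene symbol, as protein-coding genes named FOXB to FOXS, without FOXH1 and the unrelated FOXRED genes. This gave 48 of 20046 annotated protein-coding genes, of which 30 had a peak in at least 1 population. Together these 30 genes held 461 of 228472 peaks. One matched gene, FOXL2NB, is a neighbour of FOXL2 that encodes no forkhead domain, and it had no peak.

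In m6A-seq, RNA is broken into fragments, those that an antibody to N6-methyladenosine pulls down are sequenced (IP), and so is a portion set aside earlier (input). A methylated stretch of mRNA then shows as an excess of IP over input reads, called a peak. The cells were MEL1, a human embryonic stem cell line that in the study carries GFP in 1 copy of the insulin gene and was grown on CF1 feeder cells. The labels named 6 populations, each with 2 IP and 2 input libraries, 24 in all, and 1 list of peaks was deposited for each population with the libraries pooled. No list gave values per library, so there was no spread between replicates and no test between populations. Every comparison below is a description of pooled values.

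The first batch held 4 stages, namely undifferentiated stem cells (hPSC), then definitive endoderm (DE), next pancreatic progenitors (PP), and last human islet-like organoids (hILO), with mRNA and a SYSY antibody. The differentiation media contained activin A on days 1 to 3, with CHIR99021 on day 1, and KGF on days 4 to 6. Retinoic acid, KGF, vitamin C, LDN-193189 and GDC-0449 followed on days 7 to 8, and LDN-193189, vitamin C and EGF on days 9 to 14. Aggregates were kept on days 15 to 22 with zinc sulfate, heparin, 616452, T3, LDN-193189, compound E and vitamin C. The methods of the study add a last medium without LDN-193189 and compound E and with N-acetyl cysteine and trolox. The labels do not name the day on which each stage was collected. The second batch held wild-type PP (WT PP) and PP of a knockout line for ALKBH5, an enzyme that removes m6A (A5-KO PP), a picked CRISPR-Cpf1 colony cut in exon 1. Its libraries were made from total RNA with a Millipore antibody, another library kit and rRNA-depleted input. The batches thus differed in protocol, and enrichment was compared within batches.

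Forkhead proteins read DNA through a recognition helix that fits into the major groove, and many of them act in cell fate. FOXO factors are held in the cytoplasm when AKT phosphorylates them downstream of insulin and growth factor receptors, and in the nucleus they switch on genes for cell cycle arrest, stress defence and gluconeogenesis. FOXM1 drives genes of mitosis, FOXP factors act mainly as repressors, FOXK factors take part in the control of metabolism and autophagy, and factors such as FOXD3, FOXI1 or FOXC1 belong to particular embryonic lineages.

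Marker genes set only some lists apart. Peaks were found on 5 of 6 pluripotency markers in hPSC, 5 of 5 DE markers in DE, 5 and 6 of 6 progenitor markers in PP and WT PP, and 6 of 6 islet markers in hILO. The pluripotency markers also had peaks on 5 of 6 genes in DE and the progenitor markers on 5 of 6 in hILO, so these 2 marker sets did not tell hPSC from DE or PP from hILO. INS, GCG and SST, which define islet hormone cells, had peaks in the hILO list and in no other. A5-KO PP had peaks on 6 of 6 progenitor markers, 8 of 8 mesenchyme markers and 4 of 4 endothelial markers. WT PP had peaks on 4 mesenchyme and 1 endothelial markers. Over all protein-coding genes, 64.2% had a peak for A5-KO PP and 57.5% for WT PP. Input under these marker peaks was 2243 (mesenchyme) and 387 (endothelial) reads for A5-KO PP, against 422 and 21 for WT PP. PRRX1 in A5-KO PP and COL1A2 in WT PP had 0, and PECAM1 held 326 of the 387. Mesenchyme markers also had peaks on 5 of 8 genes in each stage list. Neural markers went the other way, with 4 of 6 genes for WT PP and 3 for A5-KO PP. Hepatic markers had peaks on 5 of 5 genes in hILO, against 4 in WT PP and 3 for A5-KO PP. SOX2 had no peak in any list. ALKBH5 itself had 289 input reads in 4 peaks of WT PP and 1 input read in 5 peaks of A5-KO PP, while the IP reads there numbered 836 and 592. What part other cell types had in the differences below was not tested. The enrichment of shared peaks was only weakly related between lists, and over all genes its Spearman rank correlation between neighbouring lists was 0.35, 0.30 and 0.25 from hPSC to hILO (18937, 15045 and 13469 pairs) and 0.23 from WT PP to A5-KO PP (15001 pairs). These correlations are across peaks, which share libraries and base composition.

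Forkhead factors known from many tissues carried most of the peaks. A set of 12 genes had at least 1 peak in all 6 lists, and these were FOXO1, FOXO3, its copy FOXO3B, FOXO4, FOXP1, FOXP4, FOXK1, FOXK2, FOXJ3, FOXN2, FOXN3 and FOXM1. FOXN3 held the most with 47 peaks, followed by 42 on FOXO3B, 40 on FOXO1, 38 on FOXO3, 32 on FOXK1 and 30 on FOXK2. Another 3 genes had peaks in 5 lists: FOXJ1, the master factor of motile cilia, and FOXJ2 lacked them in PP, and FOXQ1 lacked them in hPSC. FOXC1 and FOXD1 had peaks in 4 lists, FOXD2, FOXO6 and FOXP2 in 3, FOXB1, FOXE3, FOXI3 and FOXP3 in 2, and FOXD3, FOXI1, FOXI2, FOXL1 and FOXN1 were among those with peaks in 1. The 18 genes without any peak were FOXB2, FOXC2, FOXD4 and its 5 copies FOXD4L1, FOXD4L3, FOXD4L4, FOXD4L5 and FOXD4L6, FOXE1, FOXF1, FOXF2, FOXL2, FOXL2NB, FOXL3, FOXN4, FOXR1, FOXR2 and FOXS1. A missing peak can mean an unmethylated or an unexpressed mRNA, and the lists do not tell these apart.

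**Figure D1:**
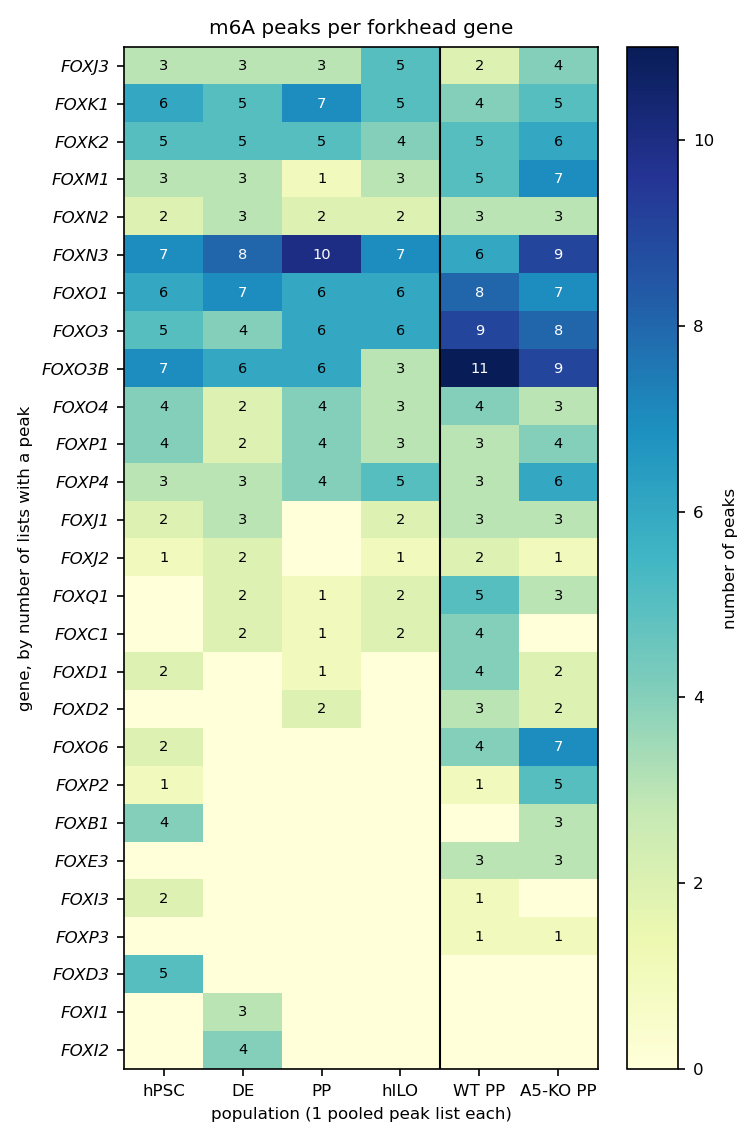
Number of m6A peaks on each forkhead gene with at least 1 input read under its peaks (rows, by the number of lists with a peak) in the 6 populations (columns), with the black line between the batches. The upper 12 rows are filled in every column, FOXD3 has its 5 peaks in hPSC, and FOXI1 and FOXI2 have their 3 and 4 in DE.

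Of the 48 genes, the hPSC list named 20 (41.7%), the DE list 18 (37.5%), and the PP and hILO lists 16 (33.3%) each. Both lists of the second batch had 24 genes (50%). Over all protein-coding genes the shares were 54.9%, 51.9%, 47.1%, 52.4%, 57.5% and 64.2% in the same order, higher than those of forkhead genes in each list. The forkhead peaks numbered 74, 67, 63 and 59 along the stages from hPSC to hILO, against 95 for WT PP and 103 for A5-KO PP.

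Forkhead peaks lay in the 3′ UTR more often than m6A peaks at large. On the longest coding isoform, 50.5% of the 461 peaks had their midpoint in the 3′ UTR, 32.8% in the coding sequence and 6.29% in the 5′ UTR, against 33.4%, 43% and 4.86% of 193162 peaks of protein-coding genes. The remaining 10.4% fell outside that isoform. The lists differed in this, as the 3′ UTR share was 61.2% in DE, against 36.7% of all, but 40% in WT PP, against 35.8%, and the coding share of WT PP was above that of all genes (42.1% against 39.7%). A site with a peak in several lists entered the pooled shares once for each list. Without FOXO3B the coding share was 31.3%, 27.9%, 36.8%, 30.4%, 46.4% and 36.2% from hPSC to A5-KO PP. With it the coding share was 28.4%, 25.4%, 33.3%, 28.8%, 42.1% and 34%. A window of 100 nt on both sides of the stop codon was reached by 21.5% of forkhead peaks and 18.6% of all. FOXO1, FOXO3, FOXK2, FOXN2, FOXN3 and FOXP1 had a peak in this window in all 6 lists. FOXJ1, FOXJ3, FOXM1 and FOXP4 had one in 5 lists, while the 7 peaks of FOXJ2 never reached it and lay in the 5′ UTR.

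m6A is written at DRACH, which is A, G or T, then A or G, then A and C, then A, C or T, with the methyl group on the middle A. On the transcript strand, 88.1% of forkhead peaks held a DRACH and 62% a GGAC, its most favoured core, against 90.6% and 56.3% of all peaks. The forkhead share with a DRACH was 81.1% for WT PP and 82.5% for A5-KO PP, where it was 89.8% and 90.7% over all genes, and from 90.5% to 96.6% in the first batch.

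The depth behind these peaks differed between lists. The median input of forkhead peaks was 67.5, 75, 120 and 441 reads along the stages from hPSC to hILO, 115 for WT PP and 60 for A5-KO PP. The deposited log2 enrichment had a median of 1.92, 1.71, 1.61, 1.44, 3.25 and 3.65 over the forkhead peaks of these lists. No input read at all lay under 7 forkhead peaks of WT PP, 24 of A5-KO PP and 1 of hPSC. That was 7.37%, 23.3% and 1.35% of the forkhead peaks, against 9.84%, 20% and 0.148% of all peaks of protein-coding genes. The 32 forkhead peaks without input split into 13 with a log2 enrichment of 0.59 to 1.02, on 23 to 70 IP reads, and 19 with 6.35 to 12.34, on 38 to 158 IP reads. Similar IP reads over no input were thus given either low or high enrichments, and the peaks without input are part of these medians but were left out of the differences between lists, unless a count is said to have no read minimum.

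**Figure D2:**
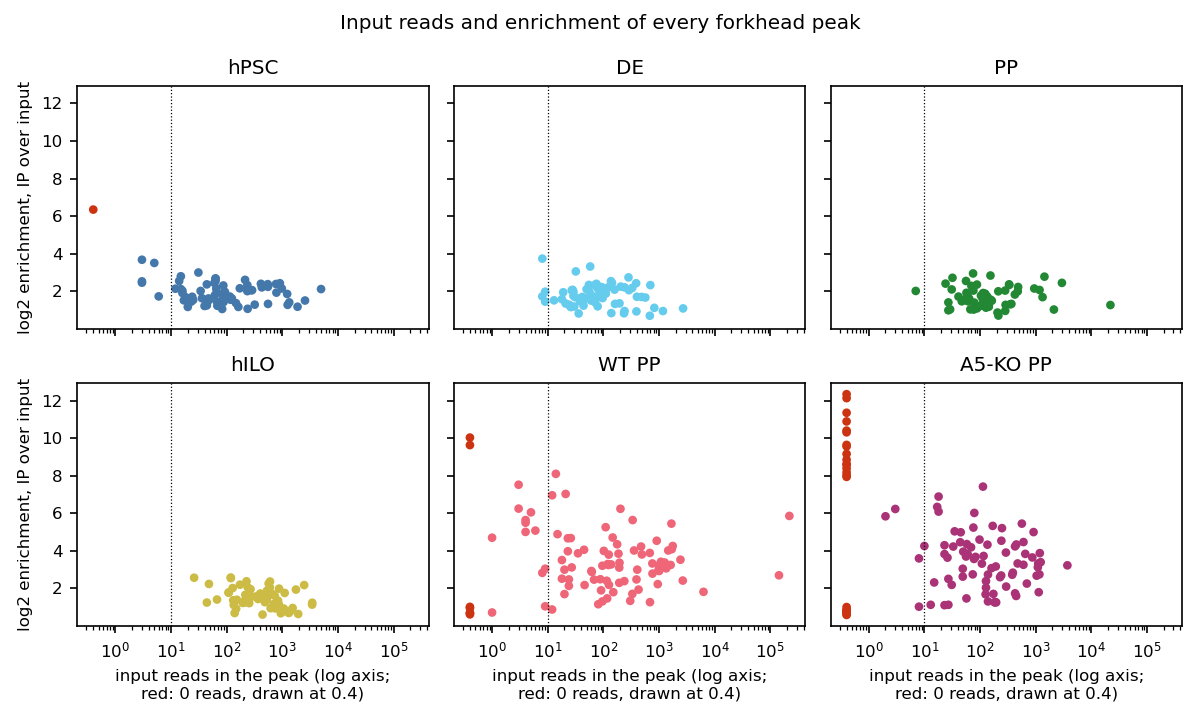
Log2 enrichment of IP over input (vertical) against the input reads in the peak (horizontal, log axis) for every forkhead peak, 1 panel for each population; red points have 0 input reads and are drawn at 0.4, and the dotted line marks 10 reads. The first-batch points lie between 0.61 and 3.74 except for 1 without input at 6.35, while in WT PP and A5-KO PP the points without input lie between 0.59 and 1.02 or at 7.94 and above.

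Some stretches were under a peak in every list. Bases covered by a peak in all 6 lists made up 24 stretches of 4825 bases on 8 genes, FOXK2, FOXM1, FOXN2, FOXN3, FOXO1, FOXO3, FOXO3B and FOXP1. Of the 24 stretches, 15 lay in the 3′ UTR, 8 in the coding sequence and 1 in the 5′ UTR, and 21 held a DRACH. The coding stretches below are shown because a peak covered them in every population, in both protocols, with the DRACH sites in capitals, 5′ to 3′ on the GRCh38 reference. They run over codons 285 to 368 of FOXO1, 612 to 653 of FOXO3, 131 to 156 of FOXM1, 48 to 72 of FOXN2 and from 407 to the end of the FOXN3 reading frame.
FOXO1 coding sequence, chr13:40560387-40560636, minus strand: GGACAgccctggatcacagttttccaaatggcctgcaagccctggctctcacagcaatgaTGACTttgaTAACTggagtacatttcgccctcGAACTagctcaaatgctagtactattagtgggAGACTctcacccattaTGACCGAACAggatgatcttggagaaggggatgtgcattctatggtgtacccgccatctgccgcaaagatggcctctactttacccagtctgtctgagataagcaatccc
FOXO3 coding sequence, chr6:108664668-108664792, plus strand: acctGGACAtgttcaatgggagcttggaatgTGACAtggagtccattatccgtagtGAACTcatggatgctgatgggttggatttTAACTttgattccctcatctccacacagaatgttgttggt
FOXM1 coding sequence, chr12:2874012-2874086, minus strand: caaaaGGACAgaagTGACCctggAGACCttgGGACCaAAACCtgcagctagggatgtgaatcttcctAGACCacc
FOXN2 coding sequence, chr2:48346356-48346430, plus strand: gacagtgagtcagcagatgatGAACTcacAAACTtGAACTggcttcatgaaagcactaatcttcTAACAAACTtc
FOXN3 coding sequence, chr14:89162417-89162602, minus strand: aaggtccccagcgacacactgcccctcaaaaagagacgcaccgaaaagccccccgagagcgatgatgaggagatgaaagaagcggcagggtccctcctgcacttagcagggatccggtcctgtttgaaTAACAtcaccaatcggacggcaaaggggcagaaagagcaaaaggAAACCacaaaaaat

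The FOXO1 stretch held 7 DRACH sites in 250 bases, the FOXM1 stretch 6 in 75, the FOXN2 stretch 5 in 75, the FOXO3 stretch 4 in 125 and the FOXN3 stretch 2 in 186. From the 3′ UTR stretches, 1 GGAC site each is shown with 30 bases, and from FOXN3 the middle of a 5′ UTR stretch that had no DRACH.
FOXO1 3′ UTR, chr13:40558802-40558831, minus strand: ctgctgtagataaGGACTgtgccattggaa
FOXO3 3′ UTR, chr6:108680049-108680078, plus strand: gcctgccagtggaGGACAgcacccctcagc
FOXP1 3′ UTR, chr3:70958880-70958909, minus strand: tcctgccaacgttGGACActgaggacgccc
FOXK2 3′ UTR, chr17:82601762-82601791, plus strand: tgtcctcccgcgaGGACCaggcatcgctgt
FOXN3 5′ UTR, chr14:89416901-89416930, minus strand: ttgtcggctcctgctgaagggcagcggcgc

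FOXO1, which in beta cells answers to insulin signalling, had peaks in its coding sequence and its 3′ UTR in every list. The gene lies on the minus strand of chr13:40555667-40666641, and positions are counted from the 5′ end of its 5779 nt mRNA, whose coding sequence runs from 430 to 2394. The stretch at 1284 to 1533, printed first above, had a log2 enrichment of 2.38 in hPSC (547 input and 7977 IP reads), 2.34 in DE (71 and 287), 1.51 in PP (115 and 515), 2.07 in hILO (238 and 937) and 3.28 in WT PP (138 and 307). The A5-KO PP list had 55 IP reads there over 0 input reads. At the start of the coding sequence WT PP had a peak at 481 to 530 with 3.25 (1195 and 6350) and another at 731 to 1030 with 5.50 on 4 input reads, and A5-KO PP one at 406 to 480 with 3.13 (1095 and 5739), where the stage lists had none on this isoform. The 3′ UTR stretch at 2430 to 2779 stood at 2.43, 2.18, 2.10 and 1.78 in the same order, so that values were lower from stage to stage by small steps. In WT PP and A5-KO PP this stretch was part of peaks with 3.85 (187 input reads) and 5.04 (35). Farther down, the stretch at 5205 to 5379 had 2.68, 2.21, 2.55 and 0.80 in the 4 stages, with hILO standing below the others on 1082 input reads. Another 3′ UTR stretch at 2880 to 3079 had 2.55, 3.06, 1.72 and 2.55. All 40 FOXO1 peaks also carried the identifier of a readthrough gene, ENSG00000288542, and 28% of their 50-base words occur in transcripts of another gene. The sharing was uneven along the mRNA. Peaks within 1159 to 2333, over the printed coding stretch among others, shared 100% of their words with the readthrough, so that its reads could not be told apart there. Peaks of the 3′ UTR that did not reach the coding sequence shared 0%.

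FOXO3, a regulator of stress resistance and quiescence, had peaks around the stop codon and in the distal 3′ UTR of its 7308 nt mRNA. The peak across the stop codon had a log2 enrichment of 2.33 in hPSC (235 input and 3129 IP reads), 2.54 in DE (137 and 565) and 2.34 in PP (335 and 2030). In hILO it was listed as a coding peak with 0.95 (616 and 1047) and a 3′ UTR peak with 1.69 (678 and 1926), both below the other stages. WT PP and A5-KO PP had the same division, with 4.02 and 5.33 in the coding peak and 4.71 and 4.30 in the 3′ UTR peak. The distal stretch at 5914 to 6088 had 1.95, 1.64, 1.36 and 1.58 in the stages. WT PP had 3.11 and A5-KO PP 6.23, where it rested on 3 input reads. FOXO3B is a processed copy of FOXO3 within the ZNF286B locus, and 44.7% of the 50-base words in FOXO3 peaks and 50.6% of those in FOXO3B peaks occur in another gene. The coding peaks of hILO, WT PP and A5-KO PP over the printed stretch shared 100% of their words with FOXO3B. Distal 3′ UTR peaks of FOXO3 shared at most 13.3% with another gene. The split of reads between FOXO3 and FOXO3B is therefore uncertain, and all 42 FOXO3B peaks also name ZNF286B.

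FOXO4, on the X chromosome, had 4, 2, 4, 3, 4 and 3 peaks in the lists from hPSC to A5-KO PP, and none of its bases was covered in all 6. Its 3′ UTR peak at 2905 to 2979 had a log2 enrichment of 2.02 in hPSC (34 input reads), 2.95 in PP (75) and 1.14 in hILO (3431), where it spanned 2855 to 3029. FOXO6, the FOXO factor best known from brain, was absent from DE, PP and hILO and had 2, 4 and 7 peaks in hPSC, WT PP and A5-KO PP. A coding peak in hPSC had 235 input and 3557 IP reads (log2 enrichment 2.01). FOXO1 and FOXO3 thus shared covered bases over every list, and FOXO4 and FOXO6 did not.

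**Figure D3:**
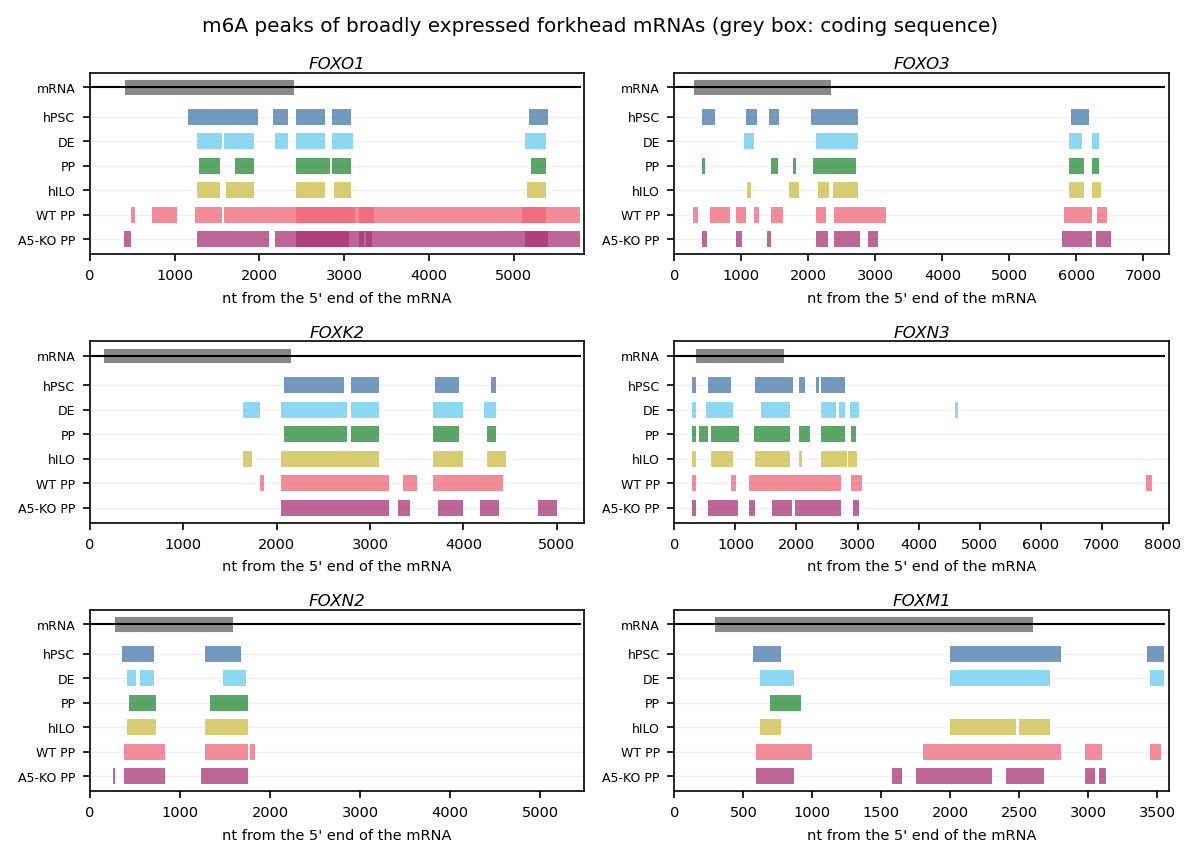
Peaks (coloured bars) of FOXO1, FOXO3, FOXK2, FOXN3, FOXN2 and FOXM1 along the longest coding mRNA in nt from its 5′ end, with 1 row for each population; the grey box is the coding sequence, and darker parts of a bar are overlapping peaks. Peaks of all populations line up at the stop codon of FOXO3, FOXK2, FOXN2 and FOXN3, and the FOXM1 peaks at 2003 and beyond are missing in PP.

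FOXP1, a repressor whose splicing changes when pluripotent cells differentiate, had 2 stretches in its 3′ UTR that were covered in all 6 lists. The 3′ UTR stretch at 2944 to 3168, which holds the FOXP1 site printed above, had a log2 enrichment of 3.00 in hPSC (31 input and 724 IP reads), 0.82 in DE (36 and 47), 2.78 in PP (1438 and 9885) and 0.68 in hILO (940 and 1287). It was thus higher in hPSC and PP than in DE and hILO, though its DE value stood on few reads. The other stretch, at 2594 to 2743, had 2.15 in hPSC (65 input reads) and 1.41 in DE (71), a smaller difference, and PP and hILO had both stretches in the same longer peaks. WT PP had 4.54 (910 input reads) and A5-KO PP 4.47 (604). A coding peak around 1862 to 2011 had 2.45 in PP on 2964 input reads. FOXP1 peaks also name EIF4E3 or ENSG00000285708 or both, and 18.4% of their 50-base words occur in another gene. The coding peak of PP shared 100% of its words with ENSG00000285708, and 3′ UTR peaks at most 21%.

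FOXP4 had between 3 and 6 peaks in each list, with a 3′ UTR peak at the stop codon of 1.95 in hPSC (90 input reads), 1.67 in DE (569) and 0.79 in hILO (1383). In WT PP a peak at 46 to 345 in the 5′ UTR had 2675 input and 7646 IP reads (2.42). FOXP2, a factor of language and motor circuits in the brain, had 1 peak each in hPSC and WT PP but 5 in A5-KO PP. The WT PP peak lay in the 3′ UTR at 2717 to 2891 with 336 input and 1970 IP reads (log2 enrichment 5.64). FOXP3, the master factor of regulatory T cells, had 1 peak each in WT PP and A5-KO PP by the gene names of the lists. Both lay at chrX:49265437-49265561, outside the FOXP3 gene as annotated, and all their 50-base words belong to ENSG00000286181, so that they say nothing firm about FOXP3.

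FOXK1 and FOXK2, which bind phosphorylated partners through a forkhead-associated domain and act in glucose metabolism and autophagy, had most of their peaks in the 3′ UTR. For FOXK2 the stretch at 2075 to 2724, across the stop codon, held 17 DRACH sites. Its log2 enrichment was 2.39 in hPSC (770 input reads), 2.33 in DE (699), 1.83 in PP (423) and 1.96 in hILO (268), so the stages were close together. WT PP had 2.83 there on 8 input reads and A5-KO PP 2.69 on 240. The FOXK2 coding sequence also had peaks, at 1644 to 1818 in DE (1.70 on 489 input reads) and from 1644 to past 1868 in hILO (2.18 on 2468). The WT PP peak at 1819 to 1868 (5.45 on 1672) lay within the span of the hILO peak. In hILO and WT PP these had the most input reads of the gene. FOXK1 peaks lay at 2639 to 2838, 3139 to 3288 and 3789 to 4063 in the 3′ UTR in 5 lists, all but WT PP. The middle one had 2.55, 1.88, 1.56 and 1.53 from hPSC to hILO on 14, 111, 154 and 536 input reads, so the highest value stood on the fewest reads.

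FOXN3, a repressor active in the cell cycle and in liver metabolism, had 7, 8, 10, 7, 6 and 9 peaks in the 6 lists. The same 75 nt of its 5′ UTR, chr14:89416878-89416952, formed a peak of identical borders in every list although they held no DRACH and had a GC content of 78.7%. Its log2 enrichment was 1.93 in hPSC (783 input reads), 1.36 in DE (195), 2.29 in PP (70) and 0.94 in hILO (743). In WT PP it was 8.10 on 14 input reads and in A5-KO PP 0.77 on 0. All 47 FOXN3 peaks also name the readthrough gene ENSG00000259053. FOXN2, its close relative, had a coding stretch at 431 to 505 with 2.68 (63 input reads), 2.05 (27), 1.23 (120) and 1.78 (604) over the stages. WT PP had 2.52 there (18) and A5-KO PP 4.99 (45).

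FOXJ1 had its broadest peak from the stop codon on, at 1563 to 1962, with 1.97 in hPSC (93 input reads), 1.84 in DE (59) and 1.61 in hILO (731) and no peak in PP. FOXJ2 peaks lay at 526 to 650 in the 5′ UTR in the same 5 lists, with 1.78, 1.70 and 0.92 in the stages. FOXJ3 peaks lay in the coding sequence at 1607 to 1656 and just behind the stop codon at 2278 to 2377. The coding peak had 1.44 in hPSC (67 input reads), 3.32 in DE (58), 1.47 in PP (61) and 2.57 in hILO (26), alternating between lower and higher values from stage to stage.

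FOXM1, which activates the genes of G2 and mitosis, had 1 coding peak in all lists and no other peak in PP. The peak over 695 to 769, with the 6 DRACH sites shown above, had a log2 enrichment of 1.43 in hPSC (88 input and 667 IP reads), 0.95 in DE (1177 and 1773), 1.53 in PP (52 and 232) and 1.41 in hILO (67 and 181). The peak at 2003 and beyond, toward the stop codon, had 2.45 in hPSC (60 input reads) and 0.70 in DE (684), was not listed in PP, and was split in hILO into 1.25 (44) and 2.20 (173). WT PP, the other progenitor list, had it with 4.26 on 1766 input reads, and A5-KO PP with 3.88 (1186) and 4.34 (449). FOXM1 thus differed between both progenitor lists, which were made with different protocols.

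Lineage factors had peaks in 1 or a few lists. FOXD3, a factor of pluripotent cells and neural crest, had 5 peaks in hPSC and none elsewhere. They covered 1125 exonic bases, and the coding-sequence peak with the most input reads had 1877 input and 14454 IP reads (log2 enrichment 1.18).

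FOXB1, an early neural factor, had 4 peaks in hPSC on 3 to 44 input reads and 3 in A5-KO PP at other places. FOXI1, known from ionocytes, had 3 peaks in DE on 24 to 55 input reads with log2 enrichments of 1.54, 1.29 and 2.04. FOXI2 had 4 peaks in DE on 26 to 401 input reads, the strongest at 1951 to 2050 with 2.11. FOXI3, a factor of the cranial placodes, had 2 peaks in hPSC and 1 in WT PP. FOXI1 and FOXI2 were the forkhead genes with peaks in DE alone.

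FOXC1, a factor of mesoderm and of the eye, had a peak across or behind the stop codon in 4 lists. It had 2.45 in DE (143 input reads), 1.92 in PP (57), and in hILO 1.66 (216) right behind the stop codon and 2.24 (48) farther on. In WT PP the peak behind the stop codon had 0 input reads, while a coding peak at 2051 to 2125 had 3.38 (1266). Other coding peaks of WT PP stood on 27 and 45 input reads. Neither hPSC nor A5-KO PP had a FOXC1 peak. FOXQ1, an epithelial factor, had a 3′ UTR peak over 2301 to 2350 with 2.21 in DE (241 input reads), 1.18 in PP (143) and 1.51 in hILO (413). In A5-KO PP all 3 FOXQ1 peaks had 0 input reads, whereas the 5 of WT PP had 0 to 407. FOXD2 had peaks in PP, WT PP and A5-KO PP at places that did not coincide.

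FOXD1, which marks the stroma of the kidney, stood apart by its counts. Its 3′ UTR peak at 2114 to 2263 had 220327 input and 1800217 IP reads in WT PP (log2 enrichment 5.86), out of 2195183 IP reads over all 95 forkhead peaks of that list. A neighbouring peak at 2039 to 2088 had 143319 and 260342. In PP a peak from 1714 to 2088 had 22067 and 121187, in hPSC a coding peak had 4966 and 71354, and in A5-KO PP the 2 peaks had 27 and 59 reads and 0 and 95. No FOXD1 peak was listed in DE and hILO. The count of WT PP was thus far above that of any other list, and what set it was not tested.

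Outside the stages, FOXE3, a lens factor, had 3 peaks each in WT PP and A5-KO PP. FOXL1, a factor of gut mesenchyme, had 1 in WT PP, and FOXN1, a factor of the thymus, 1 in A5-KO PP. The peaks of FOXL1 and FOXN1 had 0 input reads.

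**Figure D4:**
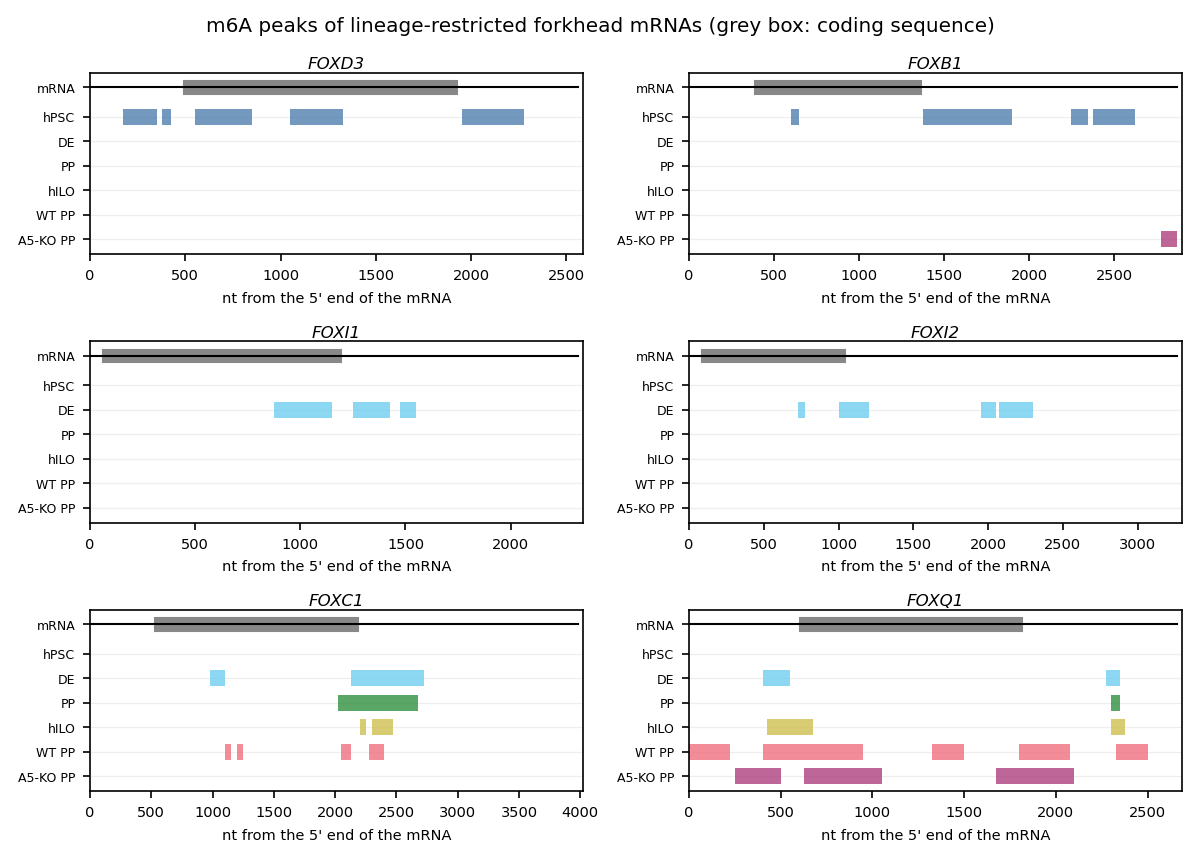
Peaks (coloured bars) of FOXD3, FOXB1, FOXI1, FOXI2, FOXC1 and FOXQ1 along the longest coding mRNA in nt from its 5′ end, 1 row for each population; the grey box is the coding sequence, and peaks outside this isoform are not drawn. FOXD3 is filled in the hPSC row alone and FOXI1 and FOXI2 in the DE row alone, while FOXC1 and FOXQ1 have no peak in the hPSC row.

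The recognition helix was looked at by its codons. It ends in a run of arginine, histidine, asparagine, leucine and serine that a search of the translated reading frames found in 42 of the 48 genes, 28 of them with a peak somewhere. A peak covered these codons in 6 genes, with 12 peaks in all, and other coding stretches of the same length were not counted for comparison. FOXN3 had one in 5 lists, all but WT PP, FOXN2 and FOXO3 in WT PP and A5-KO PP, FOXD1 and FOXD3 in hPSC, and FOXO4 in WT PP. The 42 genes used 27 different codon runs for the same residues, and the run of FOXN3 was the only one with a DRACH, in capitals below.
FOXN3 helix codons: AGACAcaatttatca
FOXO3 helix codons: cggcacaacctgtca
FOXN2 helix codons: cgacataatctgtcc

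To ask how forkhead methylation was carried from one stage to the next, each peak was looked up in the list of the stage before. Peaks with over 50% of their exonic bases under peaks of that list, strand considered, were taken as shared. Of the forkhead peaks, 67.2% of 67 in DE were shared with hPSC, 57.1% of 63 in PP with DE, and 50.8% of 59 in hILO with PP. Over all peaks the shares were 64.6%, 56.9% and 45.5%, so both were lower from each step to the next. The forkhead order rested on the rule, since the shares were 68.7%, 65.1% and 74.6% with any overlap and 44.8%, 49.2% and 40.7% with reciprocal overlap. Seen from the earlier list, the forkhead peaks kept in the next one made up 51.4%, 56.7% and 63.5%, against 52.4%, 46.6% and 60.3% of all. Of the 103 forkhead peaks in A5-KO PP, 59.2% were shared with WT PP, against 46.7% of all, whereas of the 95 forkhead peaks in WT PP 46.3% were kept in A5-KO PP, against 49.8% of all.

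Enrichment of shared peaks was compared where both lists had at least 10 input reads, and a difference of at least 1 on the log2 scale was counted as higher or lower. Errors are the counting errors of the 4 read counts, taking the pooled counts as sums, and do not cover differences between cultures. From hPSC to DE, 40 pairs on 14 forkhead genes had a median difference of -0.19, against -0.10 over all pairs. Of these 1 (2.5%) was higher, with 3.35% higher over all pairs, and 2 (5%) were lower, with 5.02% over all. The higher pair was the coding peak of FOXJ3 (difference 1.88 ± 0.28). The lower ones were the FOXP1 peak in the 3′ UTR (-2.18 ± 0.41) and the FOXM1 peak toward the stop codon (-1.75 ± 0.20). The forkhead shares were near the background.

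From DE to PP, 34 pairs on 13 genes had a median of -0.29, against -0.13 over all pairs. The 3 higher pairs (8.82%) were set against a background of 5.81%, and the 3 lower ones (8.82%) against 7.37%. FOXP1 was higher in PP (1.96 ± 0.32, set against the DE peak of 0.82 and not the other one of 1.41 under the same PP peak), as were FOXK1 at 7064 to 7438 (1.18 ± 0.16) and FOXK2 at 4250 to 4349 (1.03 ± 0.32, or 0.97 by the ratio of counts). The coding peak of FOXJ3 was lower (-1.86 ± 0.30), as were FOXO1 at 2855 to 3079 (-1.34 ± 0.39) and FOXQ1 in the 3′ UTR (-1.03 ± 0.18). FOXJ3 and FOXP1 thus turned back from the direction they had from hPSC to DE, a reversal that shares the DE values.

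From PP to hILO, 30 pairs on 11 genes had a median of -0.26, against -0.09 over all pairs. One pair (3.33%) was higher, with a background of 4.15%, and 5 (16.7%) were lower, with 11.1%. Lower in hILO were FOXP1 (-2.10 ± 0.07), the distal FOXO1 peak (-1.76 ± 0.22), the FOXO3 coding peak (-1.40 ± 0.11), the FOXN3 peak in the 5′ UTR (-1.35 ± 0.20) and FOXN2 at 1281 to 1755 (-1.10 ± 0.15, or -0.60 by the ratio of counts). FOXO3B at 2784 to 2983 was higher (1.18 ± 0.17). The lower group held FOXO1 and FOXO3 at 1 site each, while their other shared peaks differed by less than 1. By the ratio of counts FOXO1 at 2880 to 3079 passed this difference in the other direction (0.82 by enrichment, 1.13 by counts).

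The comparison of A5-KO PP with WT PP asked whether methylation differed in progenitors that lack the demethylase. With 38 pairs on 15 genes, the median difference, A5-KO PP minus WT PP, was 0.02, against 0.06 over all pairs. Of the pairs, 13 (34.2%) were higher in A5-KO PP, with a background of 27.7%, and 9 (23.7%) were lower, with 24.9%. Another 23 shared forkhead peaks had too few input reads to be compared. The spread over all pairs was wide here, with the middle 50% between -0.99 and 1.16, against -0.39 to 0.20 from hPSC to DE.

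The largest positive difference was on FOXK2 (3.96 ± 0.41), at an exon outside the longest isoform where WT PP had 61 input reads and A5-KO PP 18. FOXK2 had another higher peak in the 3′ UTR at 3725 to 3999 (2.23 ± 0.44) and a lower one at 3300 to 3424 (-1.74 ± 0.39). Also higher were FOXO4 (2.95 ± 0.56), the distal FOXO1 peak at 5130 to 5404 (2.52 ± 0.09), the FOXN2 coding peak (2.48 ± 0.47), FOXP4 at 3986 to 4260 (2.33 ± 0.47) and FOXO3B at 3559 to 3608 (1.66 ± 0.47). Smaller positive differences were seen on FOXJ3 behind the stop codon (1.32 ± 0.12), the FOXO3 coding peak (1.31 ± 0.15), FOXO1 at 2430 to 3054 (1.18 ± 0.29), FOXN3 at 921 to 1033 (1.18 ± 0.17) and FOXJ1 with 2 peaks set against the same WT PP peak (1.11 ± 0.07 at 963 to 1212 and 1.03 ± 0.09 at 2488 to 2587). FOXO1, FOXO3 and FOXO4 each had a higher pair, though that of FOXO3 was 0.87 by the ratio of counts, under the difference of 1. Taken from the read counts alone, however, the difference had the opposite sign for FOXO4 (-0.26), for FOXJ1 at 2488 to 2587 (-0.14) and for FOXO6 (0.07), which is among the lower pairs.

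Among the lower pairs, 3 were on FOXN3 (-3.35 ± 0.37, -3.13 ± 0.33 and -1.01 ± 0.36), all measured against the same WT PP peak from 1221 to 2720 with 21 input reads. The others were FOXO3B outside its longest isoform (-3.07 ± 0.38), FOXO6 (-2.20 ± 0.44), FOXM1 in the 3′ UTR (-2.04 ± 0.48), FOXO1 at 3255 to 3329 (-1.82 ± 0.21), FOXK2 as above and the peak named FOXP3 (-1.76 ± 0.09). The distal FOXO1 peak was set against a WT PP peak from 1584 to 5779 with a log2 enrichment of 2.93, which covered all its bases. A short WT PP peak that covered most of them had 3.07. FOXO1 thus had pairs in both directions, as did FOXK2, FOXN3 and FOXO3B. The main FOXP1 peak (-0.07 ± 0.09) and the FOXM1 coding peaks (0.08 ± 0.08, -0.38 ± 0.06 and 0.42 ± 0.09) differed little. When each list had to have 50 input reads or more, 6 of 22 forkhead pairs were higher and 2 lower, against a background of 22.8% and 21.3%.

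**Figure D5:**
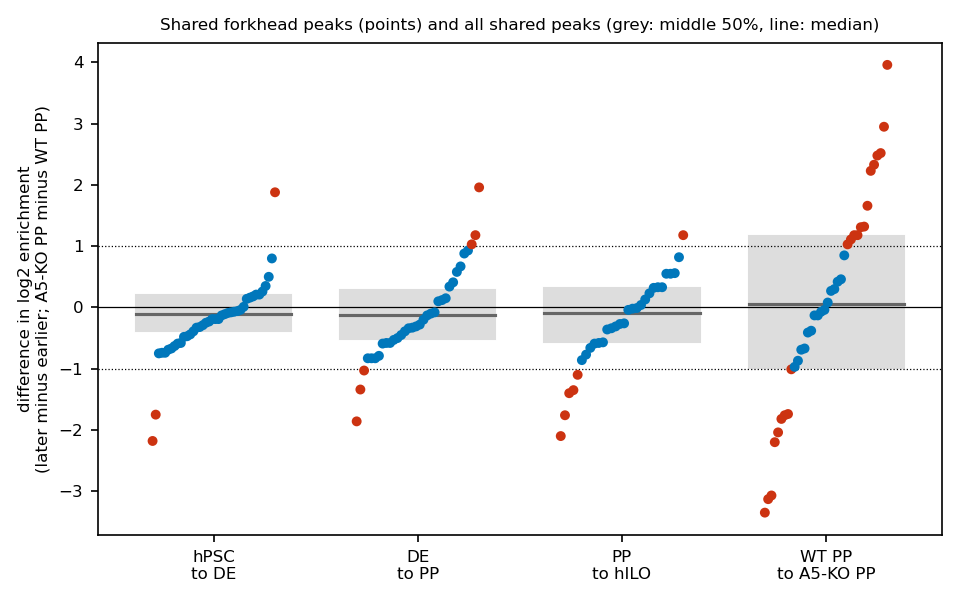
Difference in log2 enrichment (vertical) of each shared forkhead peak, sorted within the 4 comparisons (horizontal); red points differ by at least 1 (dotted lines), the grey box holds the middle 50% of all shared peaks and the dark line is their median. In the stage comparisons 3, 6 and 6 points are red, and in A5-KO PP against WT PP 22 are, 13 above and 9 below.

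Genes that act on FOXO and genes that FOXO and FOXM1 activate were followed as lists of 14 genes each. Regulators of FOXO, from the insulin receptor over PI3K and AKT to the deubiquitinase USP7 and the deacetylase SIRT1, had peaks on 13, 12, 12, 13, 14 and 14 of 14 genes from hPSC to A5-KO PP, where 54.9%, 51.9%, 47.1%, 52.4%, 57.5% and 64.2% of all protein-coding genes had one. IGF1R had 8, 6, 7, 7, 12 and 12 peaks and IRS1, an adaptor of the insulin receptor, 8, 4, 8, 5, 4 and 5. SGK1, a kinase related to AKT, had peaks in WT PP (2) and A5-KO PP (4) and in no stage list. Between stages, in their order, 0 of 27, 22 and 25 regulator pairs (on 11, 9 and 10 genes) were higher and 0, 3 and 1 were lower. Of all pairs, 3.35%, 5.81% and 4.15% were higher and 5.02%, 7.37% and 11.1% lower. In the comparison of A5-KO PP with WT PP, 14 of 32 pairs on these regulators were higher and 7 lower, with a median of 0.74, where 27.7% of all pairs were higher and 24.9% lower, with a median of 0.06.

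FOXO target genes had peaks on 8, 5, 8, 8, 10 and 9 of 14 genes, to be read against the same shares of all genes. CDKN1B, which encodes the cell cycle inhibitor p27, had peaks in all 6 lists, CDKN1A, which encodes p21, in WT PP and A5-KO PP alone, and the gluconeogenic genes G6PC1 and PCK1 in hILO alone. Of 7 pairs on 5 genes between WT PP and A5-KO PP, 2 were higher and 2 lower, against 27.7% and 24.9% of all pairs. FOXM1 targets had peaks on 11, 10, 9, 7, 11 and 10 of 14 genes, where 52.4% of all genes had a peak in hILO, the list with 7. CENPF and CENPE, both motor or kinetochore proteins of mitosis, held the most, with 17 and 15 peaks in hPSC. Of 25 pairs on 5 FOXM1 target genes between WT PP and A5-KO PP, 7 were higher and 8 lower, with a median of -0.26. This stood against 27.7% and 24.9% of all pairs.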

How the data were processed

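Reads had been trimmed by the authors (fastp) and mapped with HISAT2 to GRCh38 before exomePeak2 called 1 list of m6A peaks for each population, per the labels and methods. The deposited lists give pooled read counts of IP and input for each peak, without saying if libraries were summed or averaged. The deposited log2 enrichment is the exomePeak2 estimate of IP over input and is at least 0.585 in every list. It departs from the plain ratio of counts, and what sets the departure was not tested. The deposited adjusted p-value is at most 0.05. No depth per library is given, so precision is known only from the reads under each peak. With 1 pooled list per population there was no test between populations.

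Peaks were taken for 48 genes by symbol, with the gene field of the lists matched to GENCODE 44, and reduced to exons. Positions are 1-based along the longest coding isoform. A later peak with more than 50% of its exonic length under earlier peaks on the same strand was shared, and was set against the peak sharing most bases (the shortest where tied). Pairs were compared where each list had 10 input reads or more, and a difference of at least 1 was counted. The counting standard error was computed from the 4 counts plus 0.5. DRACH and GGAC were searched on the transcript strand, and words of 50 bases were compared with all other annotated transcripts. Members with a peak of at least 50 input reads in any list were described in full and the others by name and count, and every member pair past the difference of 1 was named. The members and lists were chosen with earlier results of these data known, and the window at the stop codon and the analyses without FOXO3B or without peaks naming another gene were added after seeing the data. Steps were tested on simulated peaks. Python 3.11.15, numpy 2.4.6, scipy 1.17.1, Biopython 1.88 and matplotlib 3.10.9 were used. Some member results and sequences are not reported here.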

Additional observations from a re-analysis of the deposited data

How the results depend on the processing

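No paired analysis was possible because each list merges its libraries into pooled values, so that no library could be left out either. With at least 50 input reads per peak, forkhead peaks numbered 45 for hPSC, 42 for DE, 58 for WT PP and 56 for A5-KO PP, and with an unadjusted p under 1e-05 they numbered 37 for DE, 49 for WT PP and 55 for A5-KO PP. With GGAC in place of DRACH, the share of forkhead peaks with a motif was 67.6%, 67.2%, 57.1%, 67.8%, 57.9% and 58.3% from hPSC to A5-KO PP. The share of DE peaks also found in hPSC was 44.8% with reciprocal overlap, and that of hILO peaks found in PP was 74.6% with any overlap. Lower pairs from hPSC to DE numbered 5 with no read minimum, 1 with at least 50 reads and 1 without peaks that name another gene. From DE to PP, 1 pair was higher with at least 50 reads. From PP to hILO, 2 pairs were higher by the ratio of counts (FOXO3B and FOXO1 at 2880 to 3079), and without peaks that name another gene 0 were higher and 2 lower. Between WT PP and A5-KO PP, 28 pairs were higher and 16 lower with no read minimum, 6 and 2 with at least 50 reads, and 3 were lower without peaks that name another gene. By the ratio of counts 3 named pairs turned direction, FOXJ1 (-0.14), FOXO4 (-0.26) and FOXO6 (0.07). Another 3 differed by less than 1 that way, FOXK2 from DE to PP (0.97), FOXN2 from PP to hILO (-0.60) and FOXO3 between WT PP and A5-KO PP (0.87). Beyond the values by construction (fewer peaks or pairs entered), the cause was not tested. Forkhead peaks with under 10 input reads were most frequent in WT PP (20%) and A5-KO PP (27.2%). By median input, however, hPSC (67.5 reads) and DE (75) stood below WT PP (115).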
